A study of Danio rerio with 16 samples.

Results

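Excess-coverage tiles are short stretches of the zebrafish genome that received many more bisulfite reads than the rest. The genome was cut into tiles of 500 bp, the reads covering each CpG were summed over all 16 libraries, and a tile with at least 5 CpGs was taken when its mean summed coverage was at least 5 times the median of 114 reads over CpGs with any read, that is at least 570 reads per CpG. This gave 1877 of 1901807 tiles with at least 5 CpGs, or 0.0987%, and they held 0.755% of all calls. Coverage chose these tiles, so it is described here without a test, and 331449 typical tiles at 0.8 to 1.2 times the median serve for comparison.

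The libraries are whole-genome bisulfite sequencing of caudal fins of adult Tg(sp7:EGFP) zebrafish, with 2 libraries in each of 8 groups and the same strain throughout. Whole fins were taken uninjured (0 dpa, days post-amputation) and as regenerates at 1, 2 and 4 dpa, and cells with EGFP (sp7+) and without it (sp7-) were sorted from regenerates at 4 dpa and from uninjured fins. The transgene uses regulatory sequence of sp7, a transcription factor gene of the osteoblast lineage, so sp7+ marks differentiating and mature osteoblasts and not every bone-forming cell, sp7- is a mixture of all other fin cells, and a whole regenerate mixes blastema with wound epidermis. Fish were pooled for each library, and the sort cannot be checked here because DNA methylation holds no expression of sp7.

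In vertebrate genomes most CpGs are methylated outside promoters and enhancers, and methylation of transposons and satellite repeats is known for keeping them silent. Short reads from a repeat are hard to place: where an assembly holds fewer copies than the animal, reads of all copies pile up on those it has, and where it holds many alike copies, reads that match several are dropped. In zebrafish the long arm of chromosome 4 is known to be late-replicating, heterochromatic and rich in repeats. Copy number was not measured, so the tiles are called here by their coverage and not by an origin.

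The deposited tables listed 23997221 CpGs on 25 chromosomes of GRCz10, of which 897105 had no read in any library. Mean coverage was 13.7 to 19.7 reads per CpG in the replicate 1 libraries of the 4 sorted groups, which are the 4 deepest, and 4.92 to 10.3 in the other 12 libraries. Members had a median of 408 to 1503 calls per tile in each library, against 32 to 141 in typical tiles, and no member had fewer than 12 calls in any library. Members' levels therefore carry the smaller counting error of the 2 sets. Whether reads of other copies enter them was not tested.

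Coverage fell off smoothly towards the threshold and thinly beyond it. Of all tiles, 75557 reached 3 times the median, 11537 reached 4 times and 1877 reached 5 times. Among the members 1193, or 63.6%, lay between 5 and 6 times, the median was 5.62 times, 126 reached 10 times, 23 reached 20 times and 3 reached 50 times. The member nearest above the threshold, at 58834500 to 58834999 on chromosome 4, had 15 CpGs with a mean of 570 summed reads and a methylation level of 88.1%. The tile nearest below it, at 42456000 to 42456499 on chromosome 12, had 21 CpGs with 569.905 summed reads and 87.9%, so the threshold fell in a continuous distribution. A further 783 tiles past 5 times the median held fewer than 5 CpGs and are not members.

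**Figure D1:**
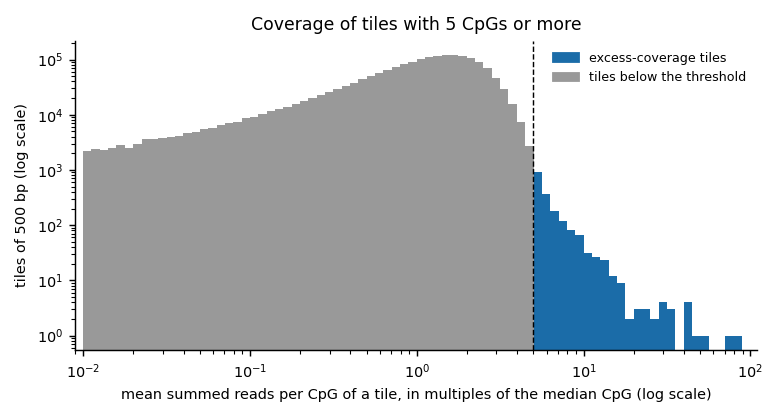
Number of 500 bp tiles with at least 5 CpGs (y axis, log scale) by mean summed coverage in multiples of the median of 114 reads (x axis, log scale). Excess-coverage tiles, 1877 in all, and tiles below the threshold are coloured apart, with a dashed line at 5 times. The bin that spans the threshold, from 4.47 to 5.01 times, is coloured as below it. The 40485 tiles under 0.01 times are not drawn. No gap separates the excess-coverage tiles from the rest: most lie just past 5 times, and the highest is at 82.4 times.

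The tile with the most reads lay at 52740000 to 52740499 on chromosome 7 and reached 82.4 times the median over 5 CpGs. Its relative coverage, the mean reads per CpG of the tile divided by the mean over all listed CpGs in that library, ran from 51.3 to 80.4 over the 16 libraries, and its methylation level was 79.3 to 87.2% in each of them and 83.3% when pooled. The tile 1500 bp on, at 52741500, reached 42.3 times with 5 CpGs at 78.9%. On chromosome 5, the tile at 826000 reached 73.8 times with 47 CpGs at 86.4%, and its libraries ran from 80.7 to 89.4%. Those 3 tiles were far above the rest of the genome in every library.

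The tile at 61791000 on chromosome 4 reached 51.3 times with 26 CpGs at 93.0%, and the tile at 55333500 on chromosome 20 reached 48.6 times with 50 CpGs at 95.7%. Both had more relative coverage in the 4 replicate 1 libraries of sorted cells, at 46.6 to 55.8 and 40.3 to 52.9, than in the other 12, at 25.2 to 38.1 and 26.9 to 38.1. Their levels did not split in the same way, with 92.1 to 94.3% against 92.2 to 95.1% on chromosome 4 and 95.1 to 96.7% against 94.1 to 96.5% on chromosome 20. None of the 5 tiles of highest coverage was unmethylated or close to it.

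Members were spread over every chromosome and were concentrated on chromosome 4. It held 403 of them, or 21.5%, with 5.73% of the tiles. The share of tiles that were members was 0.370% there, against 0.0555% on chromosome 23 to 0.125% on chromosome 22 among the other 24 chromosomes. From 25 Mb to the end of chromosome 4, a limit set after the positions had been seen, 384 tiles were members, or 0.508%, against 19 tiles or 0.0569% before 25 Mb. The densest stretch was 40 to 50 Mb, with 103 members or 0.710% of its tiles. Chromosome 4 before 25 Mb thus resembled the other chromosomes, and its remaining part held nearly all of its excess.

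The outer 1 Mb at either end of the chromosomes also held more members, at 161 tiles or 0.205%, against 0.0941% of the rest. With chromosome 4 left out the shares were 0.193% and 0.0774%. Members in these ends had a median level of 91.7% and a median of 23 CpGs, against 87.1% and 16 CpGs for members elsewhere.

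Most members stood alone. Joined where no more than 1 tile lay between them, they formed 1487 blocks, of which 1273, or 85.6%, were a single tile, 143 held 2 members and 71 held 3 or more. The longest ran from 36396000 to 36403999 on chromosome 16 with 13 members, 189 CpGs and a level of 92.5%, and its 16 libraries ran from 90.4 to 94.3%. The next ran from 76320000 to 76326499 on chromosome 4, in the last 1 Mb of that chromosome, with 12 members, 609 CpGs and a level of 91.2%. Both are long, highly methylated stretches with library values within a few points of each other. The spread of levels along a block was not computed.

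The third longest block ran from 27238000 to 27243499 on chromosome 25, with 10 members at 83.5%, and the fourth from 16381500 to 16386499 on chromosome 17, with 9 members at 83.2%. The fifth, from 30153000 to 30157499 on chromosome 4, had 7 members at the lowest level of these blocks, 72.0%, with libraries from 66.9 to 75.6%. Coverage dropped quickly outside the blocks. Around the 1401 blocks that stayed under 10 times, median coverage was 5.51 times the genome median inside, 2.65 times in the adjoining tile and 1.201 times at 5000 bp. Around the 86 blocks with a member at 10 times or more, it was 10.8 times inside, 1.56 times in the adjoining tile and 0.673 times at 5000 bp. The most covered blocks therefore had the sharper edges, and their surroundings held fewer reads than the genome median.

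Members were CpG-rich. They held a median of 17 CpGs per tile (interquartile range 11 to 24), against 9 (7 to 13) in typical tiles. This was not particular to members. The median was 14 CpGs in tiles at 3 to 4 times the median coverage and 18 at 4 to 5 times, against 18 at 5 to 6 times. The share of tiles that were members was 0.0446% at 5 CpGs, 0.0381% at 6 to 9, 0.156% at 15 to 19 and 0.533% at 30 to 39 CpGs. The 126 members at 10 times or more had a median of 14.5 CpGs, so the CpG number was not higher still among the most covered members.

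The excess-coverage tiles were highly methylated in every group. The median level of a member over all libraries was 87.4%, against 83.2% for a typical tile, and levels were less spread among members, with an SD over tiles of 12.1 points against 20.03. Levels of 25 to 75% were found in 218 members, or 11.6%, against 24.1% of typical tiles, and levels under 25% in 15 members, or 0.799%, against 4.49%. Among the 126 members at 10 times or more, 24 or 19.05% lay at 25 to 75%, a larger share than among members as a whole. The CpG number differed too: 16.7% of these 126 held exactly 5 CpGs, against 5.27% of all members. Levels of 25 to 75% were found in 44.4% of members with 5 CpGs and in 2.39% of those with 20 to 29. By coverage, the median level was 87.0% at 3 to 4 times, 89.6% at 4 to 5 times, 88.8% at 5 to 6 times and 85.1% at 6 to 8 times, and it was between 84.7% and 84.9% in the classes beyond.

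Part of the height of the members' levels went with their CpG number. At 10 to 14 CpGs the median level was 84.7% in members and 84.2% in typical tiles, and at 15 to 19 CpGs it was 86.5% and 86.2%. At 20 to 29 CpGs it was 90.2% and 87.9%, and at 30 to 39 CpGs 92.4% and 90.4%. At 5 CpGs members were lower, at 76.1% against 78.8%. At a like CpG number the medians were thus within 3 points of each other. Levels under 25% were found in 0.217% of members and 9.54% of typical tiles at 20 to 29 CpGs. At 40 or more they were found in 5.48% of members and 0.627% of typical tiles. These classes held only 461 and 73 members, so the shares of members rest on very few tiles.

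A few members were unmethylated. The lowest, at 1131000 to 1131499 on chromosome 5, had 57 CpGs, 5.76 times the median coverage and a level of 0.476%, with libraries from 0.181 to 0.952%. The next, at 44700000 on chromosome 10, had 38 CpGs at 0.547%. In all, 11 members lay under 10%. The most methylated members were at 172000 on chromosome 19, with 42 CpGs at 98.1%, and at 267000 on chromosome 2, with 34 CpGs at 98.0%, both inside the outer 1 Mb of their chromosome.

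Summed over all members, the methylation level in each library ran from 84.8% to 88.4%, and over typical tiles from 75.9% to 79.96%, so the 2 ranges did not overlap. Members were higher in 16 of 16 libraries, by 8.59 ± 0.389 points (SD, n = 16 libraries), with a lowest difference of 7.71 and a highest of 9.32 points. Weighting the typical tiles to the members' CpG numbers, a choice made after the data had been seen, left a difference of 5.86 points. Leaving out tiles under 25% in both sets left 5.35 points.

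In whole fins the pooled level of all members was 86.0 and 85.7% before injury (0 dpa), 87.1 and 87.2% on day 1, 86.1 and 86.5% on day 2, and 84.8 and 85.2% on day 4. In the sorted cells it was 86.1 and 85.9% in sp7+ cells and 86.4 and 84.9% in sp7- cells at 4 dpa, against 88.4 and 87.6% in sp7+ cells and 87.2 and 86.7% in sp7- cells at 0 dpa. Both cell types were lower at 4 dpa than at 0 dpa in every library, and whole fins were highest at 1 dpa and lowest at 4 dpa. Typical tiles followed the same order over time, with means of 76.99, 78.7, 77.9 and 76.3% in whole fins at 0, 1, 2 and 4 dpa.

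**Figure D2:**
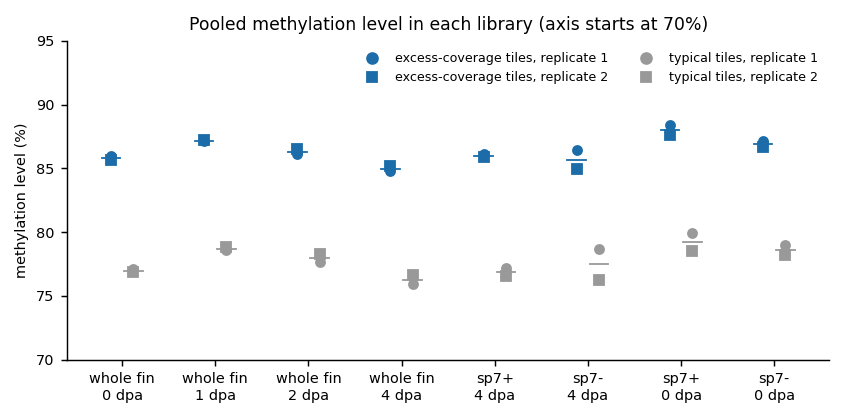
Pooled methylation level (y axis, %, starting at 70%) of the excess-coverage tiles and of typical tiles in each of the 8 groups, with a circle for replicate 1, a square for replicate 2 and a line at their mean. Excess-coverage tiles lie between 84.8 and 88.4% in all 16 libraries and typical tiles between 75.9 and 79.96%, and both sets are lowest in whole fins at 4 dpa and highest in sp7+ cells at 0 dpa.

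Replicates agreed more closely on members than on typical tiles. The median absolute difference between the replicates of a group was 1.22 points (sp7+ at 0 dpa) to 1.92 points (whole fin at 4 dpa) over members, against 3.86 to 6.21 points over typical tiles. It was smaller in members in 8 of 8 groups, with a mean difference, members minus typical tiles, of -3.49 points. Depth accounts for part of this by construction: with the members' calls thinned to the depth of typical tiles their median difference was 2.36 to 3.92 points, and the mean difference was -1.89 points. The CpGs of 1 tile also differed less in members, with a median SD of 8.81 points within a tile against 11.1 points in typical tiles. Counting error at a CpG is smaller in members, and this SD was not computed after thinning or at a like level. It does not show that the CpGs of members are more alike.

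Of all members only 1 differed by over 25 points between replicates. Of typical tiles, where counting error is larger, 0.298 to 3.30% did in each group. With the members' calls thinned to the depth of typical tiles, 0 to 0.748% of members did. The 1 member lay at 44498500 to 44498999 on chromosome 10 with 9 CpGs. Its level in whole fins at 0 dpa was 81.2% in replicate 1 and 41.7% in replicate 2. The other 14 libraries ran from 49.1 to 70.5%, between those values.

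Relative coverage was steady across libraries for most members, and differed strongly for a few. The highest library exceeded the lowest by a median of 1.59 times (interquartile range 1.45 to 1.80), by 1.18 to 1.22 times for the 3 steadiest members and by 20.03 to 27.8 times for the 3 least steady. In 14 members, 10 of them on chromosome 4, the replicate 1 libraries of the 4 sorted groups all exceeded 2 times the highest of the other 12 libraries. This held for 0.746% of members and 0.142% of typical tiles. In 181 members, or 9.64%, these 4 libraries all exceeded the highest of the other 12, against 2.17% of typical tiles. In 26 members, or 1.39%, all 12 exceeded these 4, and no share of typical tiles was computed for this. Coverage chose the members and sets these shares in part, so they are a description only. The 4 libraries span both cell types and both times, so the split does not follow the biological groups. They are the 4 deepest libraries, and the replicate 1 libraries of whole fins lay among the other 12. What set the split was not tested, and depth and anything else that these 4 libraries share cannot be told apart.

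The tile at 47529500 to 47529999 on chromosome 4 shows the split. Its relative coverage in the replicate 1 libraries of sorted cells was 6.80 (sp7+, 4 dpa), 13.8 (sp7-, 4 dpa), 12.6 (sp7+, 0 dpa) and 11.9 (sp7-, 0 dpa), while the other 12 libraries ran from 0.640 to 1.30. It reached the threshold only through those 4 libraries. Its methylation level was 91.5 to 94.5% in the 4 libraries and 84.8 to 94.8% in the 12, so the levels overlapped where the coverage did not. At 71202000 on chromosome 4 these libraries had a relative coverage of 11.6 (sp7+, 4 dpa), 20.1 (sp7-, 4 dpa), 18.9 (sp7+, 0 dpa) and 16.96 (sp7-, 0 dpa), against 1.596 to 2.39 in the other 12. Its level was 90.1 to 92.9% in the 4 libraries and 84.6 to 92.5% in the 12. In both tiles the deepest of the 4 libraries (sp7+, 4 dpa, 19.7 reads per CpG) had the lowest relative coverage of the 4. The shallowest of them (sp7-, 4 dpa, 13.7 reads per CpG) had the highest. The median over all members had the same lowest and highest of the 4, at 4.29 and 4.997. The order is thus not particular to these tiles, and what set it was not tested.

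**Figure D3:**
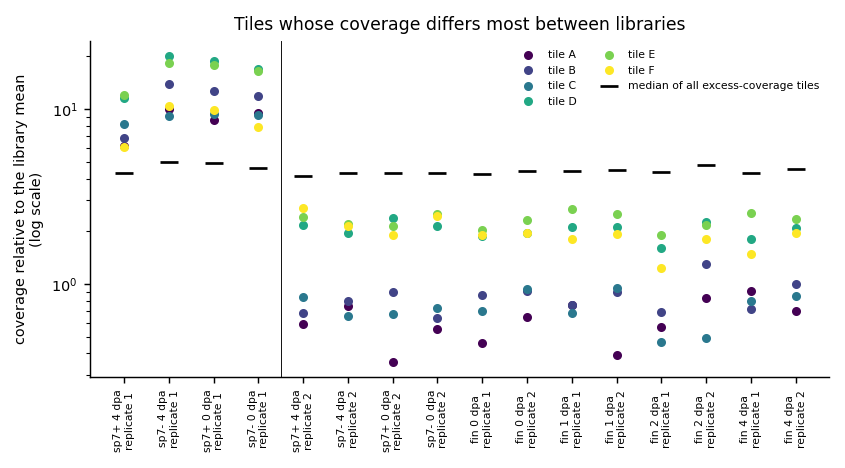
Relative coverage (y axis, mean reads per CpG of the tile over the mean of the library, log scale) of 6 excess-coverage tiles on chromosome 4 in each of the 16 libraries (x axis), with a black mark at the median of all excess-coverage tiles and a vertical line between the 4 replicate 1 libraries of sorted cells and the other 12. The tiles A to F start at 40797500, 47529500, 61790500, 71202000, 56403500 and 71200500. In each of them the 4 libraries lie above all of the other 12, while the median of all excess-coverage tiles stays between 4.14 and 4.997 in every library.

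Chosen again without these 4 libraries, 1432 tiles passed, of which 1344 were members before: 71.6% of the members and 93.9% of the new set. Of the new set 21.9% lay on chromosome 4, and its median level was 86.4%. In whole fins alone 1652 tiles passed, and 1408 of them were members. In the 4 libraries alone 2512 tiles passed, of which 1694 were members. Of the members, 1187 or 63.2% passed 5 times both in the 4 libraries and in the other 12.

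To ask whether members resemble other parts of the assembly, the distances between neighbouring CpGs served as a fingerprint, since no sequence of this assembly was used here. A run of 9 CpGs inside a tile was called recurring when its 8 distances were found again, in either direction, over 10 kb away or on another chromosome. This measure was chosen after the data had been seen and sees only copies that the assembly lists. Of 1580 members with at least 1 such run, 514 or 32.5% had a recurring one, against 20.04% of typical tiles and 67.2% of tiles under 0.2 times the median. Most members were thus not recognised as copies of another listed stretch, and the least covered tiles of the genome were.

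The comparison with typical tiles turned with the CpG number. At 9 to 14 CpGs 13.5% of members and 5.56% of typical tiles had a recurring run, and at 15 to 19 CpGs 30.03% and 31.5%. At 20 to 29 CpGs it was 39.3% of members and 66.1% of typical tiles, and at 30 or more 57.9% and 93.6%. From 20 CpGs on, the share was thus smaller in members than in typical tiles of like CpG number. It was larger in members than in tiles at 3 to 5 times the median coverage in each class. Those tiles had 2.05% at 9 to 14 CpGs, 7.25% at 15 to 19, 21.4% at 20 to 29 and 49.4% at 30 or more. Over all classes they had 12.3%, against 32.5% of members. From 20 CpGs on, members thus lay between these tiles and typical tiles. Among members at 10 times or more the share was 44.0%. On chromosome 4 from 25 Mb on it was 48.2% of members and 49.7% of typical tiles there.

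**Figure D4:**
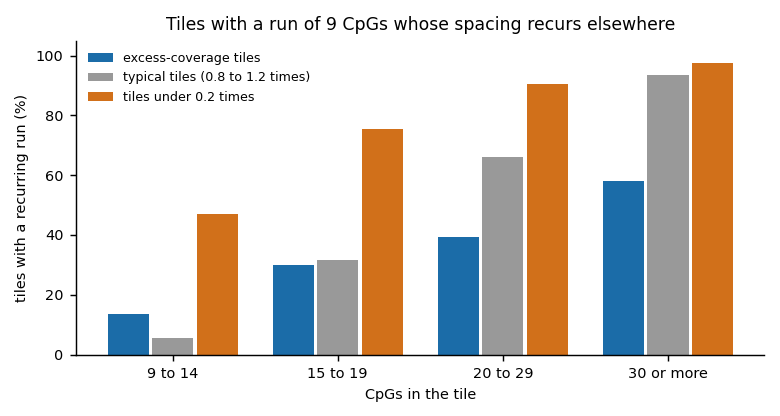
Share of tiles (y axis, %) with a run of 9 CpGs whose spacing recurs elsewhere in the assembly, by the number of CpGs in the tile (x axis), for excess-coverage tiles, typical tiles and tiles under 0.2 times the median coverage. Excess-coverage tiles are above typical tiles only at 9 to 14 CpGs (13.5 and 5.56%) and far under them at 30 or more CpGs (57.9 and 93.6%), and tiles under 0.2 times are highest in each class. Tiles at 3 to 5 times, whose share is under that of excess-coverage tiles in each class, are not drawn.

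Members with a recurring run had a median level of 89.1% and lay on chromosome 4 in 30.9% of cases, and members with a run that did not recur had 87.7% and 17.5%. The member with the most copied run, at 56287500 to 56287999 on chromosome 3, had 15 CpGs, 10.1 times the median coverage and a level of only 31.7%, and its run was listed 8958 times. A run of 177 bp was listed 1637 times, 1632 of them on chromosome 4 from 25 Mb on. Its whole length lay in 726 tiles, whose median coverage was 0.0885 times the genome median, and 14 of these tiles were members. So a family whose copies mostly received few reads also held 14 of the most covered tiles.

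Those 14 members, all on chromosome 4, had a median level of 91.1%, against 89.7% for the 712 tiles with the run under the threshold. Their median relative coverage was 8.04 in the replicate 1 libraries of sorted cells and 2.45 in the other 12 libraries, and in 13 of the 14 those 4 libraries exceeded all others. The same held for 29.5% of the 712 tiles with the run under the threshold, for 9.02% of members without the run and for 2.17% of typical tiles. Of the 14 members with the strongest split between libraries, 5 held this run. The run was picked as the most copied one among those 14 members with the strongest split. That its tiles split between libraries was thus partly fixed in advance and is no separate support. Coverage chose the members and sets these shares in part, and the tiles under the threshold held few reads. The shares are therefore given as a description only.

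Methylation was then compared between the groups, tile by tile, over all 1623591 tiles with at least 10 calls in each of the 8 sorted libraries and all 1424392 such tiles of the whole fin libraries. All 1877 members were tested in both sets. A tile was called when the moderated limma test gave a Benjamini-Hochberg adjusted p under 0.05 and the group means differed by over 25 points. These p-values measure the spread between 2 pooled libraries per group. The test did not pair sp7+ and sp7- libraries of the same replicate number, which may come from the same pool of fish. Members were chosen by coverage and not by level, but the test is not independent of coverage. The number of calls enters its weights, and its prior spread is the same for all tiles whatever their depth. The calls within members are also too few to describe them as a set.

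Between sp7+ and sp7- cells at 0 dpa, 2 members were called, or 0.107%, both lower in sp7+ cells. Over all tiles tested 4620 were called, or 0.285%, of which 0.259% of the tested tiles were lower in sp7+ cells, and 0.329% of typical tiles were called. At 4 dpa no member was called, against 0.24% of all tiles. With a limit of 10 points in place of 25, 5 members (0.266%) were called at 0 dpa and 2 (0.107%) at 4 dpa, against 0.381% and 0.327% of all tiles. Each of these shares of members rests on at most 5 calls, too few to set the members apart from all tiles. The quasi-binomial logistic test, which models the counts and moderates each tile's dispersion, called 2 members (0.107%) at each time, against 0.438% of all tiles at 0 dpa and 0.446% at 4 dpa.

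The share of members with small p-values depended on the model of the spread. At an unadjusted p under 0.05, the limma test found 42 members at 0 dpa (2.24%, against 9.04% of all tiles) and 46 at 4 dpa (2.45%, against 9.46%). The quasi-binomial test found 227 at 0 dpa (12.1%, against 10.2%) and 202 at 4 dpa (10.8%, against 10.8%). Limma with a prior spread that follows the mean calls of a tile found 212 (11.3%, against 9.44%) and 185 (9.86%, against 9.78%). With no limit on the size of a difference, 48 members at 0 dpa (2.56%, against 1.64% of all tiles) and 40 at 4 dpa (2.13%, against 1.69%) had a quasi-binomial Benjamini-Hochberg adjusted p under 0.05. Limma with the prior that follows the calls gave 37 (1.97%, against 1.37%) and 33 (1.76%, against 1.33%). The limma test without it gave 5 (0.266%, against 0.382%) and 2 (0.107%, against 0.328%). Without a limit on size, the members' share thus lay above or under that of all tiles depending on the model.

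Differences between the cell types were small in most members. The median difference, sp7+ minus sp7-, was 0.792 points at 0 dpa, with 71.6% of members higher in sp7+ cells, and 0.461 points at 4 dpa, against 0.253 and 0.0546 points in typical tiles. A difference of over 10 points was found in 18 members at 0 dpa, or 0.959%, against 10.3% of typical tiles, where counting error is larger. With the members' calls thinned to the depth of typical tiles it was found in 59 of 1875 members, or 3.15%.

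The member called with the largest difference lay at 61421000 to 61421499 on chromosome 7, with 13 CpGs and 7.10 times the median coverage. Its level was 16.2 and 18.7% in sp7+ cells and 41.5 and 46.7% in sp7- cells at 0 dpa, a difference of -26.7 points (adjusted p = 0.0407, limma with Benjamini-Hochberg adjustment). Both sp7+ libraries lay under both sp7- libraries, and the replicates gave -25.3 and -28.0 points. At 4 dpa it was 26.6 and 32.6% in sp7+ cells and 47.8 and 64.1% in sp7- cells, a difference of -26.3 points that was not called (adjusted p = 0.0610, limma) but was in 5 of 15 alternatives (4.79e-06 to 0.375). Whole fins ran from 38.1 to 55.2%, between the sp7+ values and the highest sp7- value. The difference at 0 dpa stood in 12 of the 13 CpGs, with differences of -13.1 to -44.3 points, while the first CpG of the tile was high in both, at 84.2% (sp7+) and 93.5% (sp7-).

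At 0 dpa the tile 500 bp before it had a level of 78.9% in sp7+ cells against 83.3% in sp7- cells, and the tile 1000 bp after it had 84.5% in both. The nearest tiles with at least 5 CpGs on either side were thus highly methylated in both cell types. No annotation of GRCz10 was used, so no gene is named for this or any other tile.

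The other called member lay at 38452500 to 38452999 on chromosome 14, with 5 CpGs and 5.05 times the median coverage. Its level was 44.1 and 46.9% in sp7+ cells and 71.7 and 70.8% in sp7- cells at 0 dpa, a difference of -25.8 points (adjusted p = 0.0184, limma with Benjamini-Hochberg adjustment). At 4 dpa it was 40.9 and 43.4% in sp7+ cells and 61.6 and 63.2% in sp7- cells. Whole fins ran from 67.9 to 78.1%, and no sp7+ library overlapped with any other. The difference at 0 dpa lay in the 3 middle CpGs, at -26.4, -42.7 and -38.1 points, and the outer 2 differed by -1.66 and -4.14 points.

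A member 4000 bp further on, at 38456500 with 8 CpGs and 5.88 times the median coverage, was called with the limit of 10 points. Its level was 40.2 and 44.8% in sp7+ cells and 68.8 and 63.8% in sp7- cells at 0 dpa, a difference of -23.8 points (adjusted p = 0.0308, limma with Benjamini-Hochberg adjustment). At 4 dpa it was 53.3 and 51.0% in sp7+ cells and 74.6 and 78.0% in sp7- cells, a difference of -24.2 points (adjusted p = 0.0305, limma). The 6 tiles between them with at least 5 CpGs differed by -4.97 to 6.47 points at 0 dpa. The highest of these values belonged to another member, at 38455500 with 6.93 times the median coverage. Outside the members, the tile 4500 bp before the first of them, with 6 CpGs and 1.01 times the median coverage, differed by -53.8 points at 0 dpa.

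With the limit of 10 points 2 members (0.107%) were higher in sp7+ cells at 0 dpa, against 0.0624% of all tiles, and 3 (0.16%) were lower, against 0.319%. Of the higher ones, that at 34174500 on chromosome 12 had 27 CpGs and 5.23 times the median coverage. It was at 92.2 and 93.5% in sp7+ cells and 72.3 and 75.2% in sp7- cells at 0 dpa (19.1 points, adjusted p = 0.0342, limma), and at 82.3 and 83.8% in sp7+ cells and 66.8 and 53.6% in sp7- cells at 4 dpa (22.9 points, adjusted p = 0.0458, limma). The tiles 500 and 1000 bp after it, which are not members, also differed, by 12.3 and 21.8 points at 0 dpa. The other lay at 39847000 on chromosome 11, with 7 CpGs and 5.18 times the median coverage, at 89.2 and 87.4% in sp7+ cells and 69.8 and 67.4% in sp7- cells at 0 dpa (19.7 points, adjusted p = 0.0443, limma). In all 5 tiles the sp7+ and the sp7- libraries did not overlap at 0 dpa, but the same libraries gave the calls, so this is no further support.

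**Figure D5:**
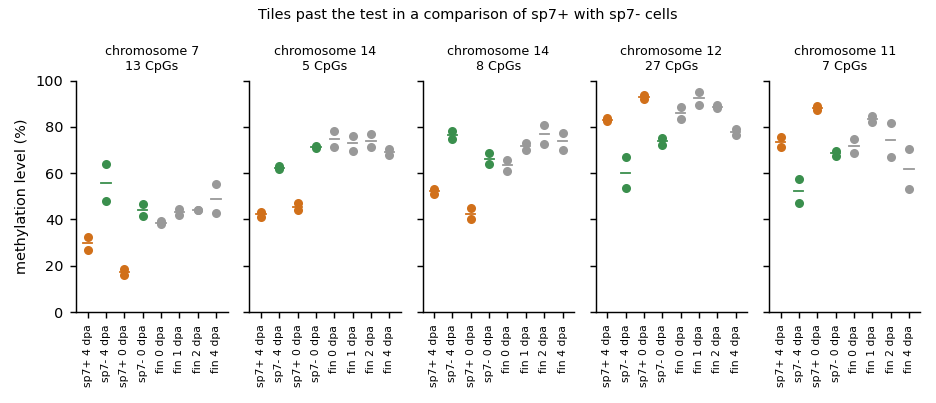
Methylation level (y axis, %) of the 5 excess-coverage tiles called between sp7+ and sp7- cells at 0 dpa with a limit of 10 points, 1 panel each, in the sp7+ and sp7- libraries at 4 dpa and at 0 dpa and in the whole fin libraries (points are replicates, lines their mean). On chromosomes 7 and 14 the sp7+ cells lie under the sp7- cells (-26.7, -25.8 and -23.8 points at 0 dpa), and on chromosomes 12 and 11 above them (19.1 and 19.7 points), at both times.

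The calls needed both replicates. Without any 1 of the 4 libraries of 0 dpa no member was called at 0 dpa, where the lone library left is assumed to vary like the other groups and calls over all tiles fell to between 732 and 1589. The differences were -24.0 to -29.3 points for the chromosome 7 tile and -24.4 to -27.2 points for the chromosome 14 tile when each library was left out. Without either sp7+ library at 4 dpa the differences at 0 dpa stayed at -26.7 and -25.8 points. Without sp7- replicate 1 at 4 dpa, 3 differences at 4 dpa were larger. The tile at 61421000 on chromosome 7 had -34.5 points in place of -26.3. That at 44303500 on chromosome 8 had -37.9 in place of -27.3, and that at 34174500 on chromosome 12 had 29.5 in place of 22.9. With the members' calls thinned to the depth of typical tiles, none was called at 0 dpa and 2 were at 4 dpa. Of all tiles, 0.287% and 0.242% were called in that setting. The chromosome 7 tile was called in 7 of 15 alternatives (adjusted p 1.08e-05 to 0.261, limma and quasi-binomial tests), and the chromosome 14 tile in 9 of 15 (0.00022 to 0.214).

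At 4 dpa another member had a larger difference that was not called. The tile at 44303500 on chromosome 8, with 21 CpGs and 5.20 times the median coverage, was at 20.5 and 17.6% in sp7+ cells and 35.8 and 57.0% in sp7- cells, a difference of -27.3 points (adjusted p = 0.0609, limma with Benjamini-Hochberg adjustment). The sp7- replicates were 21.2 points apart, and the comparisons within the replicate numbers gave -15.3 and -39.4 points. Its 0 dpa levels were 8.54 and 9.64% in sp7+ cells and 32.0 and 30.6% in sp7- cells. It was named after its values had been seen, as 1 of the 2 members over 25 points at 4 dpa.

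Between 4 and 0 dpa limma called no member in sp7+ cells, where 0 of all tiles were called, or in sp7- cells, where 137 were, or 0.00844%. The quasi-binomial test also called no member, against 1432 of all tiles for sp7+ cells (0.0882%) and 1901 for sp7- cells (0.117%). At an unadjusted p under 0.05, limma found 55 members in sp7+ cells (2.93%, against 9.89% of all tiles) and 53 in sp7- cells (2.82%, against 9.62%). The quasi-binomial test found 552 (29.4%, against 13.03%) and 306 (16.3%, against 10.4%). With no limit on size, 52 members in sp7+ cells (2.77%, against 1.10% of all tiles) and 14 in sp7- cells (0.746%, against 0.432%) had a quasi-binomial adjusted p under 0.05 (Benjamini-Hochberg). Calls of small changes over time thus depended on the model of the spread. The median difference, 4 dpa minus 0 dpa, was -1.83 points in sp7+ cells, with 87.9% of members lower, against -1.71 points and 65.5% in typical tiles. In sp7- cells it was -1.45 points with 81.8% lower, against -1.50 points and 62.6%. The shift was thus of like size in both sets of tiles and stood out of a narrower spread in members. No member differed by over 25 points in either cell type, against 0.259% of all tiles in sp7+ and 0.443% in sp7- cells. In each cell type 13 members, or 0.693%, differed by over 10 points. Of all tiles, where counting error is larger, 9.74% did in sp7+ and 10.9% in sp7- cells.

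No member was called for a change over time that differed between the cell types by limma, where 0 of all tiles were called, or by the quasi-binomial test, where 2 were. At an unadjusted p under 0.05 limma found 0 members (against 4.67% of all tiles), the same test after thinning 36, and the quasi-binomial test 68 (3.62%, against 4.61%). The median of that difference was -0.293 points.

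In whole fins no member was called at 1, 2 or 4 dpa against 0 dpa, and over all tiles 0, 0 and 1 were called, the last being 7.02e-05% of tiles. The quasi-binomial test called no member and 0, 1 and 5 of all tiles. At an unadjusted p under 0.05, limma found 32, 17 and 19 members (1.70, 0.906 and 1.01%), against 7.48, 6.48 and 6.63% of all tiles. The quasi-binomial test found 195, 114 and 149 (10.4, 6.07 and 7.94%), against 8.08, 6.65 and 6.95%. The median difference from 0 dpa was 1.17 points at 1 dpa with 73.2% of members higher, 0.256 points at 2 dpa with 55.4% higher, and -0.859 points at 4 dpa with 66.9% lower. Typical tiles differed by 1.43, 0.497 and -0.904 points, with 59.6% higher at 1 dpa, 53.2% higher at 2 dpa and 56.0% lower at 4 dpa. None of the members differed by over 25 points, against 0.494, 0.521 and 0.488% of all tiles. At 1, 2 and 4 dpa 22, 11 and 12 members differed by over 10 points (1.17, 0.586 and 0.639%). Of all tiles, where counting error is larger, 13.3, 12.8 and 12.8% did. The median member in whole fins thus moved in the same direction as the median typical tile at each time point, and by less.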

How the data were processed

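Each deposited table held, per CpG of GRCz10, the count of reads and the count of methylated reads, made by the authors for 1 library. Per the labels and the methods, TruSeq DNA Methylation libraries were trimmed with Trim Galore 0.4.1, mapped with Bismark 0.16.1 and Bowtie2 to a GRCz10 genome carrying the strain's variants, and deduplicated. CpGs lost to those variants were left out by the authors, and ambiguous reads were set aside. Read placement, duplicate removal and the assembly all act on coverage, so they bear on which tiles were chosen. Whether the positions count from 0 or 1 is not given in the sources used here, and positions are printed as listed.

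Counts were summed over 500 bp tiles. A level is methylated calls over all calls. Relative coverage divides by the mean of a library, although the rule for naming tiles had foreseen its median, which is a small whole number here. Members and lists were chosen with earlier results of these data known. The study's DSS was not used. For each tile with at least 5 CpGs and 10 calls in each of the 8 libraries of a set, the arcsine square root of the level, with 0.5 added to methylated calls and 1 to calls, was fitted with 1 mean per group and weights that assume a correlation of 0.02 between calls. Variances were moderated with limma 3.58.1 (R 4.3.3), and two-sided p-values were adjusted by Benjamini-Hochberg over all tiles tested. The model was tested on simulated data. Python 3.11.15, numpy 2.4.6, scipy 1.17.1 and pandas 2.3.3 did the rest. Named tiles are the 5 of highest coverage, the 3 most different called members of each comparison, the tiles at the threshold, the 5 longest blocks and the 2 lowest and 2 highest levels. Others were named after their values had been seen. Levels at 1 CpG and calls per tile carry counting error that falls with depth. Alternatives were other thresholds, 1000 bp tiles, at least 10 CpGs or 20 calls, unweighted, thinned, blocked, centered, trended and quasi-binomial fits, and leaving out each library. The library subsets, the CpG weighting and the spacing runs were added after the data had been seen.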

Additional observations from a re-analysis of the deposited data

How the results depend on the processing

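With a threshold of 3 times the median 75557 tiles were members, with 10 times 126, and with tiles of 1000 bp 708, and leaving out each library gave 1630 to 2082. The difference in pooled level between members and typical tiles kept its direction in every setting run. It was 3.25 points at 3 times the median, 7.71 points as a mean of tile levels, 7.67 points without the 4 replicate 1 libraries of sorted cells, 5.86 points with typical tiles weighted to the members' CpG numbers and 5.35 points at levels of 25% or more, and 8.54 to 8.65 points when each library was left out. The replicate difference was -1.89 points after thinning. The settings that leave out the 4 libraries, weight the CpG numbers or drop low tiles were chosen after the data had been seen.

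Members called between sp7+ and sp7- cells at 0 dpa numbered 149 at 3 times the median, where 75557 tiles are members, 5 with a limit of 10 points, 0 at 10 times the median, 0 without weights, 0 after thinning and 0 to 2 when each library was left out. At 4 dpa they numbered 153 at 3 times the median, and 2 each with a limit of 10 points, at least 20 calls, thinning, a trended prior and the quasi-binomial test, and 0 to 3 when each library was left out. Of all tiles tested, the main fit called 0.285% at 0 dpa and 0.24% at 4 dpa, and the fit without weights 0.0754% and 0%. At 4 dpa it was 0.318% with at least 20 calls, 0.242% with thinning and 0.42% with a trended prior. Between 4 and 0 dpa in sp7- cells 8 were called at 3 times the median, where 137 of all tiles, or 0.00844%, were called. Every other comparison over time called 0 members in each setting run. Thresholds, thinning and left-out libraries change the tiles or calls that enter, and beyond this the cause was not tested.

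The labels name no batch that a replicate number shares, and 2 numbers a group cannot show a pairing. Deviations of same-numbered sorted libraries correlated by 0.0551 to 0.0984 over all tiles tested and by 0.167 to 0.253 over members. Between sp7+ and sp7- libraries of 1 time, members gave 0.253 at 0 dpa and 0.167 at 4 dpa. In whole fins the correlations were -0.00358 to 0.00151 over all tiles tested and 0.00458 to 0.0574 over members. With the replicate number as a block 2 members were called at 0 dpa and 1 at 4 dpa, the tile at 61421000 on chromosome 7 (adjusted p = 0.0313, limma), and over all tiles 5149 and 4283. With 2 libraries a group, and few calls among members, these data limit what can be said of single tiles. Coverage can come from the animal's copy number, the assembly or the mapping, and these cannot be told apart.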
